A study of Mus musculus with 10 samples.

Results

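Whole back skin of 2 C57BL/6J samples without surgery was compared across all genes, 1 array labelled telogen, when hair follicles rest, and 1 labelled anagen, when they grow hair. The comparison took in every gene that the array's probe table names, 19505 genes, and used 2 of the 10 arrays of the series. Each difference is the anagen array's value minus the telogen array's value, in log2 units, so that 1 unit is 2-fold. With 1 array a stage there was no replicate, and a difference has no error and no test. Whether 1 array holds RNA of 1 mouse or of several was not stated in the labels, nor was how anagen was reached, its day, or the site on the back.

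Both samples came from wildtype mice of 9 weeks at the start of the experiment, with no expander implanted. The other 8 arrays were skin over a silicone expander placed under the back skin of mice of the same strain and starting age. The expander had been filled with saline in 4 of them (expanded skin) and left unfilled in 4 (non-expanded skin). Each arm has a single array at days 0, 7, 14 and 21, counted from the end of filling. Those 8 arrays are given here only as levels beside the pair, since surgery separates them from it.

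Hair follicles cycle through growth (anagen), regression (catagen) and rest (telogen). In anagen, stem cell progeny at the base of the follicle form a matrix of dividing cells around the dermal papilla. Matrix cells then differentiate into the inner root sheath, which moulds the hair, and into the hair shaft, whose cortex and cuticle fill with hair keratins and are cross-linked by keratin-associated proteins. Melanocytes in the bulb pass pigment to the shaft. In telogen the lower follicle is gone and the remaining epithelium rests beside the stem cell bulge.

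The array median over all probe sets was 6.45 in telogen and 6.33 in anagen, and 6.27 to 6.37 on the expander arrays. The 23 background probe sets, which match no mouse gene, had a median of 5.46 and a 95th percentile of 6.51 over all arrays, and 6388 genes (32.8%) lay under that median in both stages. Genes that skin hardly expresses were lower on the anagen array. The median level of 1081 olfactory receptor genes was 4.13 in telogen and 3.62 in anagen against 3.77 to 4.01 on the expander arrays, and 196 of the 1081 were at least 2-fold lower in anagen and 1 higher. The median difference was -0.31 for genes with a mean of both arrays up to 5, -0.22 from 5 to 7, 0.25 from 7 to 10, 0.11 from 10 to 14 and -0.35 above 14. Genes are therefore named below as lower only where the telogen value stood over the 95th percentile of background, while the list counts hold every measured gene. In 281 genes a value in either stage was above 16, the log2 ceiling of a 16-bit scanner reading, so differences of the brightest genes depend on how the deposited values were scaled. Eif2s3y, Kdm5d and Uty, which lie on the Y chromosome, were above the background median on all 10 arrays.

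Of the 19505 genes, 3409 were at least 2-fold higher in anagen (17.5%) and 3466 at least 2-fold lower (17.8%). Every list and family count below is to be read beside these shares. At 4-fold the counts were 1401 higher (7.18%) and 979 lower (5.02%), and at 8-fold 613 higher (3.14%) and 347 lower (1.78%). The median difference over all genes was -0.16 with an SD of 1.51 over genes. The anagen array held the highest of all 10 values in 3994 genes (20.5%), among them 572 of the 613 genes that were 8-fold higher. The telogen array held the highest value in 3609 genes (18.5%), among them 154 of the 347 that were 8-fold lower. The larger rises thus made anagen the highest array more often than the larger falls made telogen the highest. How often either array was the lowest of all 10 was not counted. Falls in which anagen lay below all 9 other arrays are therefore not shown by these counts.

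**Figure D1:**
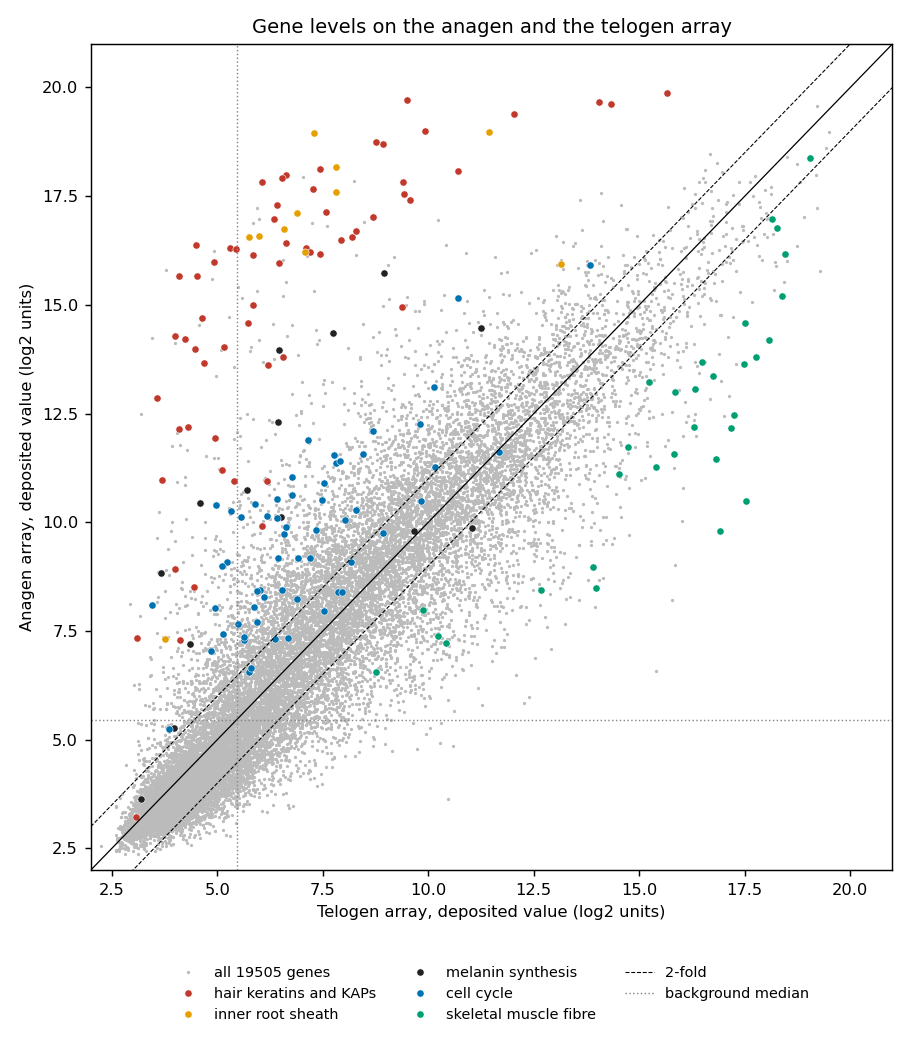
Each point is 1 gene, with the telogen array's value on the x axis and the anagen array's value on the y axis, both in log2 units; the solid line marks equal values, the dashed lines 2-fold and the dotted lines the background median. Hair and inner root sheath genes lie far above the line, cell cycle and melanin genes above it, and skeletal muscle genes below it.

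The 12 largest rises among genes above background ran from 11.02 to 12.02. Apart from Ctse, which encodes the aspartic protease cathepsin E, they were the hair keratins Krt33a and Krt34, 6 keratin-associated proteins, and Tchhl1, Crnn and Calhm4. Ctse was 3.78 in telogen and 15.80 in anagen, and between 3.47 and 8.93 on the expander arrays. Tchhl1 and Crnn belong to the S100 fused-type family that includes trichohyalin and filaggrin; Tchhl1 was 7.30 in telogen and 18.94 in anagen and Crnn 5.95 in telogen and 17.23 in anagen. Calhm4, of the calcium homeostasis modulator channel family, was 4.93 in telogen and 16.23 in anagen. In all 12 the anagen value lay above every expander array.

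The 12 largest falls ran from -5.72 to -8.82. Serpinb10, a clade B serine protease inhibitor, was 15.40 in telogen and 6.58 in anagen, and C7, a component of the terminal complement complex, was 15.78 in telogen and 8.22 in anagen. Mb (myoglobin), Tnnc2 (fast skeletal troponin C) and Lmod2 (leiomodin 2, which acts on thin filaments of striated muscle) are muscle genes; Mb was 16.92 in telogen and 9.81 in anagen. Pon1 and Cyp2e1 encode enzymes of xenobiotic metabolism, and Ctsk encodes cathepsin K, a collagen-degrading protease. Ctsk was 16.02 in telogen and 10.04 in anagen, while the expander arrays held 15.45 to 16.60. Acyp2, Tspan8, Fam180a and the imprinted noncoding RNA Ipw made up the rest, with differences of -6.42, -6.41, -5.82 and -5.72. For Pon1 the telogen value (10.46) lay above every expander array (3.31 to 7.18), and the anagen value (3.63) lay within their range. For Serpinb10, Tnnc2, Cyp2e1, Acyp2, Tspan8 and Ipw telogen lay above every expander array and anagen below every one.

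**Figure D2:**
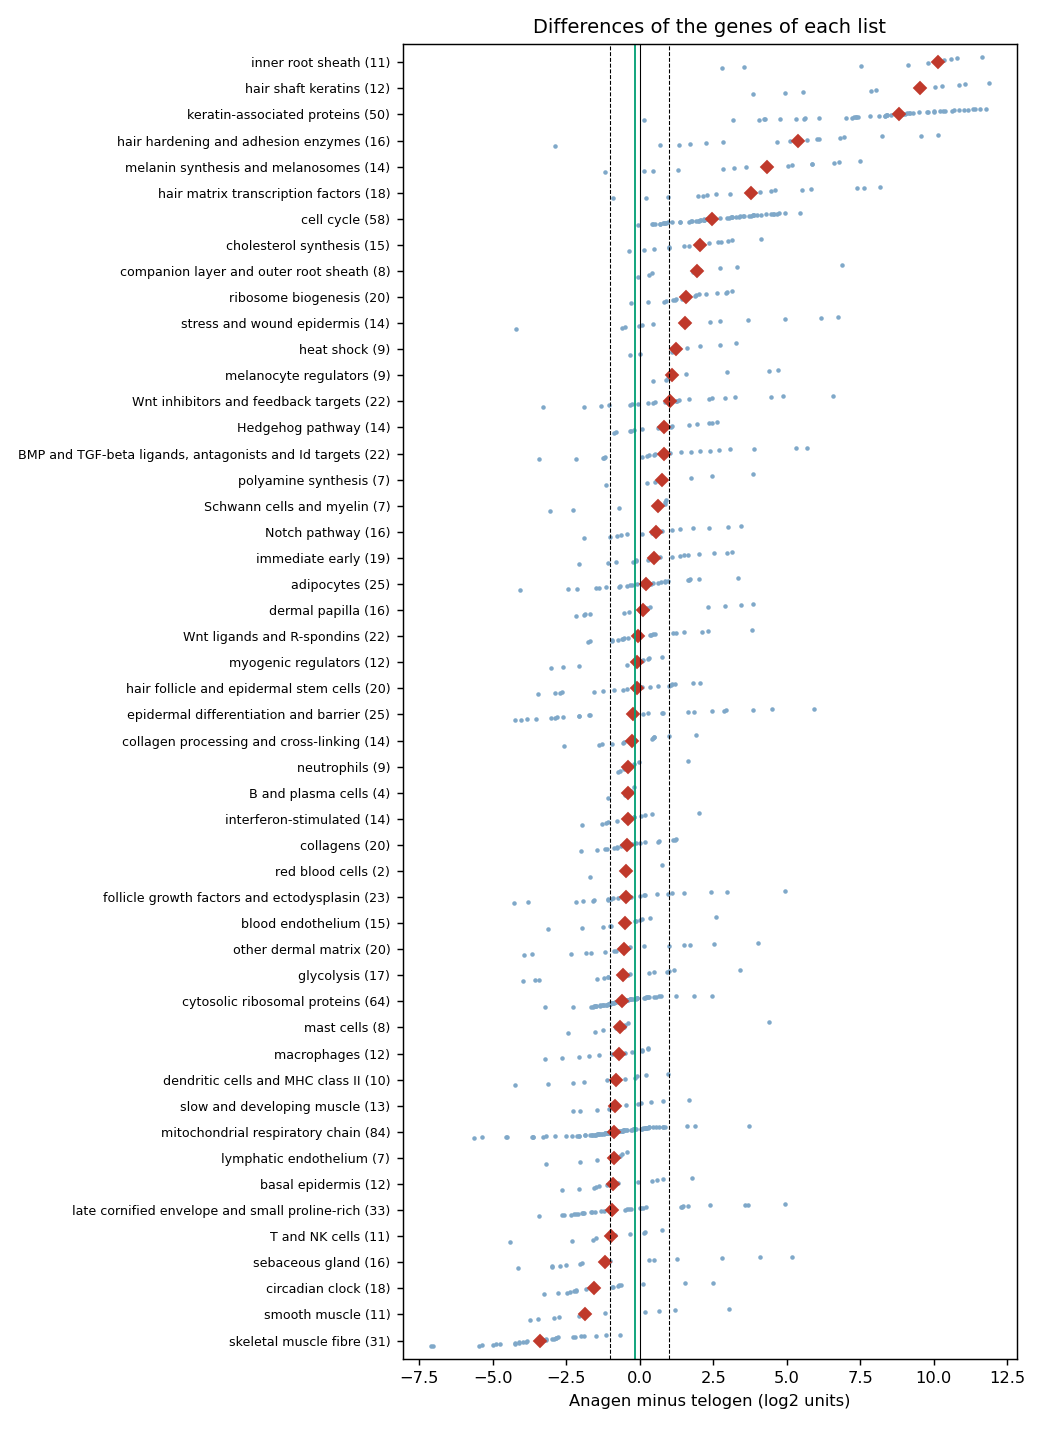
Each blue point is the anagen minus telogen difference of 1 gene in log2 units, grouped by gene list with the number of measured genes in brackets, and each red diamond is the list's median. The green line is the median of all genes (-0.16) and the dashed lines mark 2-fold; medians run from -3.39 for skeletal muscle fibre to 10.16 for the inner root sheath.

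The hair genes matched the label anagen. All 12 hair shaft keratins measured were at least 2-fold higher in anagen, where 17.5% of all genes were, with a median difference of 9.52 against -0.16 for all genes. Hair keratins are type I and type II filament proteins that pair in the shaft. Of the type I members, Krt31 was 6.42 in telogen and 17.29 in anagen, Krt33a 4.49 in telogen and 16.37 in anagen, Krt33b 4.63 in telogen and 14.69 in anagen, Krt34 4.92 in telogen and 15.99 in anagen and Krt35 3.99 in telogen and 14.28 in anagen. Of the type II members, Krt86 was 7.58 in telogen and 17.13 in anagen and Krt82 4.10 in telogen and 12.13 in anagen. The smallest differences were those of Krt36 (4.93) and Krt40 (3.84). In telogen 9 of the 12 lay under the background median, and in anagen none did. On the expander arrays Krt31 had a lowest value of 5.09, a median of 5.56 and a highest of 12.43, the last on the expanded array of day 7. The list's mean was 5.03 in telogen, 13.65 in anagen and 4.33 to 8.87 on the expander arrays, so the anagen array stood apart from all of them.

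Keratin-associated proteins, the cysteine-rich and glycine-tyrosine-rich proteins between the filaments, were higher in 49 of 50 genes, by a median of 8.81. The exception, Krtap13, was under background in both stages (3.08 in telogen against 3.21). Krtap1-4 was 6.05 in telogen and 17.84 in anagen, Krtap3-1 4.09 in telogen and 15.67 in anagen and Krtap11-1 6.64 in telogen and 17.99 in anagen. The members were not all silent in telogen. Krtap22-2 was 15.66 in telogen and 19.88 in anagen, Krtap6-5 14.33 in telogen and 19.63 in anagen and Krtap19-1 14.05 in telogen and 19.67 in anagen. For these 3 the anagen values were the highest of all 10 arrays, yet the telogen value was already above 14. By family, the median difference was 10.21 in Krtap1 (3 genes), 9.15 in Krtap4 (7 genes), 9.26 in Krtap19 (6 genes) and 7.37 in Krtap5 (5 genes). Krtap3-2 and Krtap3-3 carry identical values on all arrays, so they are 1 measurement, though the 49 of 50 counts them as 2 genes.

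The inner root sheath, whose keratins and trichohyalin harden before the shaft does, was higher in 11 of 11 genes with the largest median of any list, 10.16. The type II sheath keratins Krt71, Krt72 and Krt73 were 7.82 in telogen against 18.17, 6.58 in telogen against 16.74 and 5.99 in telogen against 16.59. Their type I partners Krt25, Krt26, Krt27 and Krt28 differed by 10.23, 10.81, 9.80 and 9.14. Tchh, trichohyalin, was 11.45 in telogen and 18.98 in anagen. Krt74 was under background in telogen and over it in anagen (3.77 in telogen against 7.31). The protease gene Ctsc, which many other cells express, showed the smallest difference (2.81), and the expander arrays reached 17.10, above anagen.

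Enzymes and junction proteins that harden and bind the shaft were higher in 14 of 16 genes (median 5.39). Padi3, which converts arginine to citrulline in trichohyalin, was 3.99 in telogen and 14.13 in anagen. Padi1 and Padi4 differed by 6.82 and 6.08, while Padi2 differed the other way (8.03 in telogen against 5.13, difference -2.90). The transglutaminase Tgm3, which cross-links sheath and shaft proteins, was 8.93 in telogen and 14.97 in anagen. The desmosomal cadherin Dsg4, whose loss gives brittle hair, was 5.58 in telogen and 15.15 in anagen, and S100a3, a cuticle protein, 5.80 in telogen and 14.03 in anagen.

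In the companion layer and outer root sheath, the layers that enclose the inner sheath, 5 of 8 genes were higher (median 1.93). Krt75, the companion layer keratin, was 9.04 in telogen and 15.92 in anagen. Krt17 was 11.92 in telogen and 15.24 in anagen, within its range on the expander arrays (11.65 to 15.60), and Krt16 was 5.94 in telogen and 8.67 in anagen against up to 16.16 there. Krt14 and Krt5, which all basal keratinocytes express, differed by only 0.43 and -0.05. The sheath's specific keratin thus set anagen apart, and its shared keratins did not.

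Transcription factors of the matrix and precortex were higher in 15 of 18 genes, by a median of 3.78. Dlx3 was 5.77 in telogen and 13.93 in anagen, Foxn1, the factor missing in nude mice, 6.08 in telogen and 13.69 in anagen, and Msx2 4.28 in telogen and 11.67 in anagen. Hoxc13, an activator of hair keratin genes, was 3.56 in telogen and 8.17 in anagen, and Lef1, the nuclear partner of beta-catenin in the precortex, 4.92 in telogen and 9.37 in anagen. The telogen values of Msx2, Hoxc13 and Lef1 lay under background, and the expander arrays reached 6.31, 4.05 and 4.79, all under anagen. Dlx2, Elf5, Prdm1 and Ovol1 differed by 5.82, 5.52, 4.07 and 3.85. Hr, which is needed for follicle regrowth, and Bcl11b differed by 0.19 and -0.91, and Msx1 by 0.97.

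**Figure D3:**
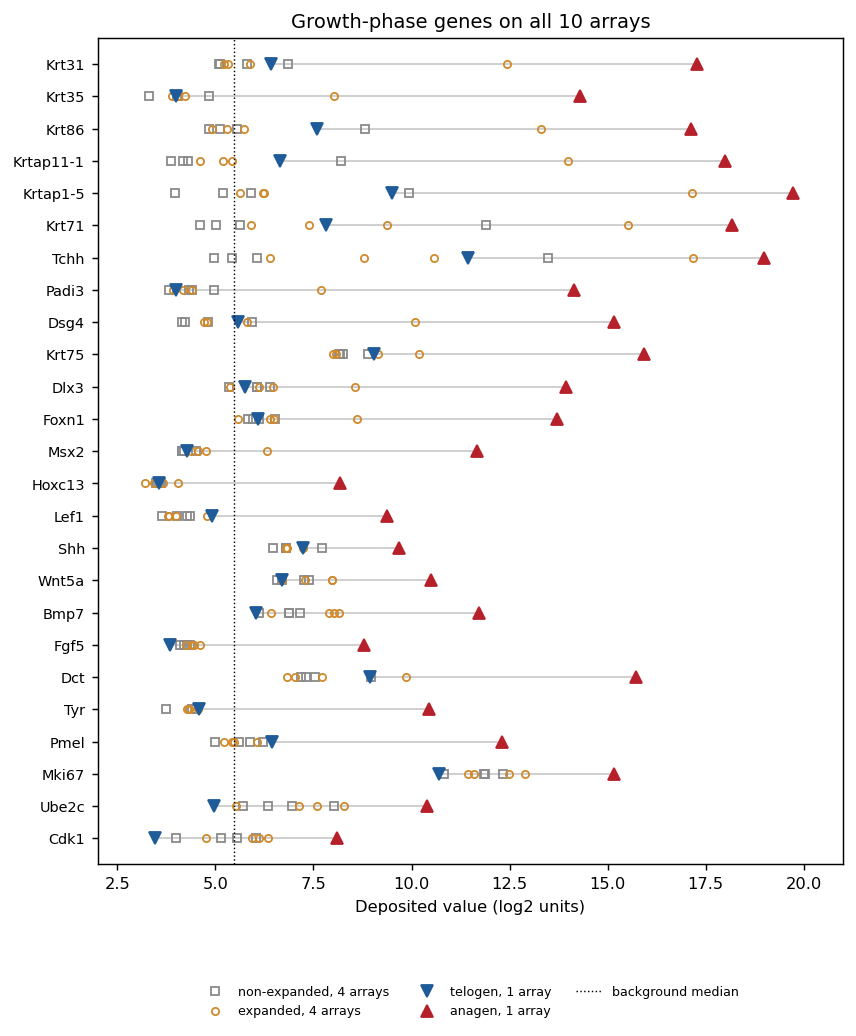
Values of 25 genes in log2 units on the telogen array (blue triangle), the anagen array (red triangle) and the 8 expander arrays (orange circles expanded, grey squares non-expanded); the dotted line is the background median. Anagen is the highest array for every gene shown, and the 1 expanded array with high hair keratin values is that of day 7.

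Because the hair genes differed together, their promoters were read from RefSeq windows of build GRCm38.p6 that run from 250 bases before the annotated start to 50 after it. Of the 19505 genes, 15691 had a window, 19143 windows in all. In all 7 words were searched on both strands, among them CTTTGAA, which LEF and TCF factors bind, and TATAAA, the TATA box. CTTTGAA stood in 5 of 9 hair keratin windows (55.6%), in 9 of 46 of the keratin-associated proteins (19.6%) and in 2 of 10 of the inner root sheath, against 4.44% of all windows and 7% of those of genes 8-fold higher in anagen. TATAAA stood in 66.7%, 80.4% and 70% of the same 3 lists against 12.3% of all. Its share was 21% in genes 8-fold higher in anagen and 19.8% in genes 8-fold lower. With its first base 20 to 40 bases before the start, on the gene's strand, TATAAA was in 4 of 9, 26 of 46 and 5 of 10. That compares with 2.52% of all windows, 11.5% for genes 8-fold higher and 5.79% for genes 8-fold lower. The word CAATAAA stood in 0 of 9, 0 of 46 and 2 of 10 windows of these lists, against 3.49% of all. CTAAAAATA stood in none of them and in 0 of 25 muscle fibre windows, against 0.423% of all.

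The windows of 4 type I hair keratins and of Krtap11-1 are shown because CTTTGAA stands at nearly the same distance from the start in each. The 250 bases before the start are printed 5′ to 3′ on the gene's strand with CTTTGAA and TATAAA in capitals. All 5 genes lie on the minus strand, at chr11:100050552-100050801, chr11:100088270-100088519, chr11:100029869-100030118, chr11:100041555-100041804 and chr16:89571184-89571433.
Krt31: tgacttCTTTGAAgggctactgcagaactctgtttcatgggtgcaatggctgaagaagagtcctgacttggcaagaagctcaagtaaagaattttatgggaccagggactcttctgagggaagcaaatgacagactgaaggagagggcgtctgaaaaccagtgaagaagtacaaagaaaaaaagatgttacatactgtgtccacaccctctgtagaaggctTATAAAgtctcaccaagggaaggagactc
Krt32: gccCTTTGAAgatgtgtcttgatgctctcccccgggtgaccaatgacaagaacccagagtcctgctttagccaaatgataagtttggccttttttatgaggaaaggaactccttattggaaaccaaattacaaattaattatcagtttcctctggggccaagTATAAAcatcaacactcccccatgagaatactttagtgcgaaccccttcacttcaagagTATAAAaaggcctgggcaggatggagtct
Krt33b: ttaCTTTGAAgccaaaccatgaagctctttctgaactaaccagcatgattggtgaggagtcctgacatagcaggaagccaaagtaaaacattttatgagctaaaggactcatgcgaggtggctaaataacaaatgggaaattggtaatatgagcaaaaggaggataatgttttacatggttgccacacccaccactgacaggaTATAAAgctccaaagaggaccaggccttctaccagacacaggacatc
Krt34: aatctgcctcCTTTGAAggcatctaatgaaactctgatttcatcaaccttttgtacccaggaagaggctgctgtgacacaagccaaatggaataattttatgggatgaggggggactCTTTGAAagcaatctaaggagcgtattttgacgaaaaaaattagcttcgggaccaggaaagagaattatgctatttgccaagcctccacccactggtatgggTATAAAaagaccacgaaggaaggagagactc
Krtap11-1: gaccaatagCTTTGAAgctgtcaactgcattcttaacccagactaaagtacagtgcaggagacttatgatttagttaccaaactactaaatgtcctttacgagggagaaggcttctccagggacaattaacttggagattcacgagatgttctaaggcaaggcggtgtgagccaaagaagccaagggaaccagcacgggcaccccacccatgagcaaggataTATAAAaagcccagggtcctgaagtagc
CTTTGAA begins 244, 247, 247, 240 and 241 bases before the start, and TATAAA 29, 29, 47, 31 and 28 bases before it. Krt34 has another CTTTGAA 133 bases before its start and Krt32 another TATAAA 88 bases before its own. On the gene's strand and over 200 bases before the start, CTTTGAA was in 4 of 9 hair keratin windows (44.4%) and 5 of 46 windows of keratin-associated proteins (10.9%), against 0.585% of all windows. Krt31, Krt32, Krt33b and Krt34 are neighbouring copies of 1 gene family, so their windows are not independent sequences. The distance limit was set after the positions were seen. The matches are descriptions of letters, and binding was not measured.

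**Figure D4:**
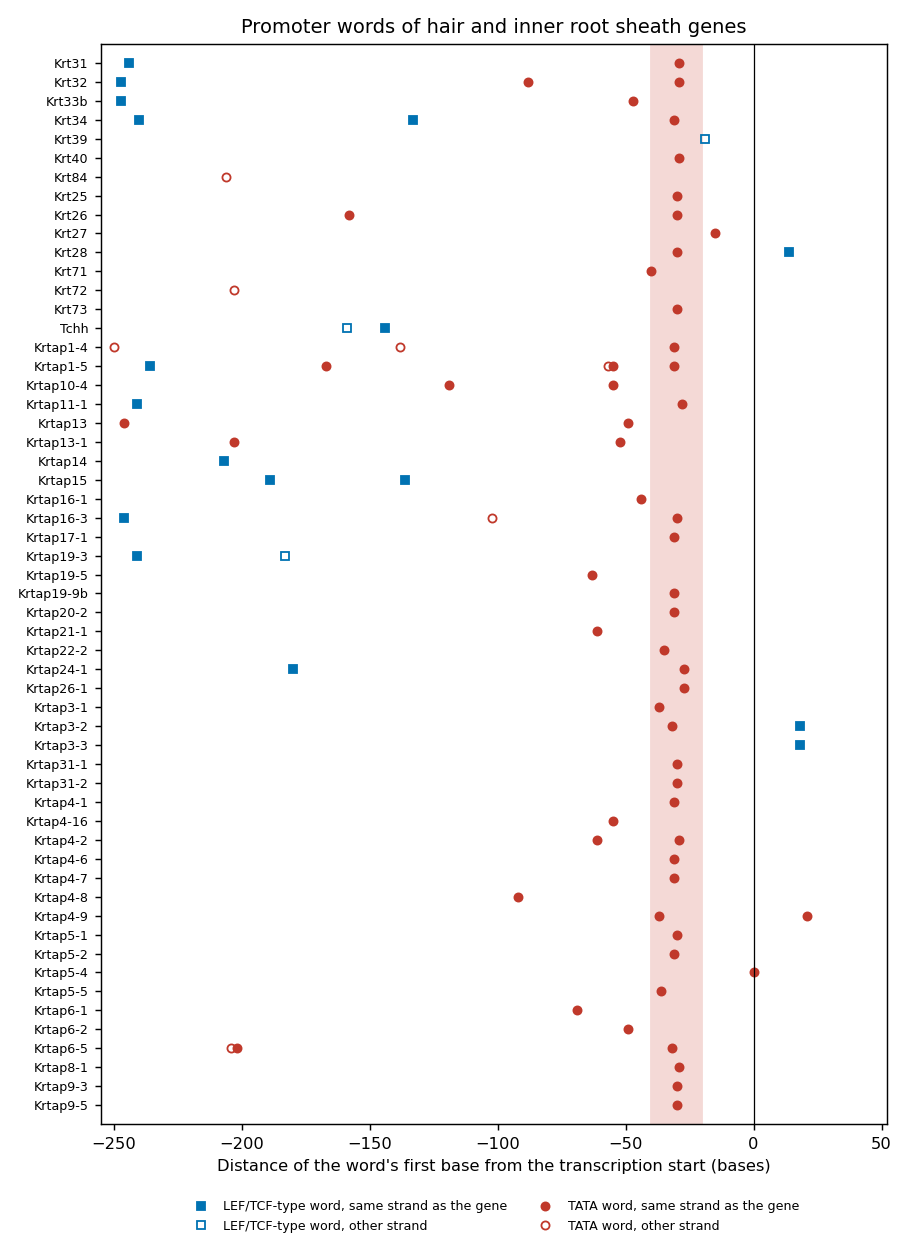
Each row is a gene of the hair keratin, inner root sheath or keratin-associated protein list that has either word in its window, with the distance of the word's first base from the transcription start on the x axis. Filled symbols are on the gene's strand and open ones on the other; red TATA words gather in the shaded band 20 to 40 bases before the start, and the blue LEF/TCF-type words of 9 genes lie over 200 bases before it.

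Pigment genes were higher as well. Of 14 genes of melanin synthesis and melanosomes, 11 were at least 2-fold higher and 1 lower (median 4.33). Tyr, tyrosinase, the rate-limiting enzyme of melanin synthesis, was 4.60 in telogen and 10.45 in anagen, Tyrp1 7.75 in telogen and 14.35 in anagen and Dct 8.94 in telogen and 15.73 in anagen. Pmel, which forms the melanosome's fibrils, was 6.45 in telogen and 12.31 in anagen, and Trpm1, a channel of melanocytes, 6.46 in telogen and 13.96 in anagen. The transporters Slc45a2 and Slc24a5 differed by 5.17 and 5.04. Rab38 and Rab27a, members of the same list, differed by 0.14 and -1.18. The expander arrays stayed within 5.87 to 6.59 for the list's mean, near telogen (6.68) and under anagen (10.48). Among 9 regulators of melanocytes 6 were higher: the endothelin receptor Ednrb (4.72), the stem cell factor receptor Kit (4.41), the melanocortin receptor Mc1r (2.96) and the master factor Mitf (1.58) led, and the ligand Kitl differed by 0.97. In whole skin, more cells of a type and more RNA per cell cannot be told apart, here and for every list.

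Genes of the dividing cell were higher too, by smaller amounts than those of the shaft. In the cell cycle list 47 of 58 genes were at least 2-fold higher and 0 lower, with a median of 2.45. Ube2c, which drives exit from mitosis, was 4.96 in telogen and 10.40 in anagen, the mitotic kinases Plk1 and Cdk1 5.32 in telogen against 10.26 and 3.46 in telogen against 8.11, and the proliferation marker Mki67 10.71 in telogen and 15.16 in anagen. Of its genes of DNA replication, Mcm2 differed by 3.70, Rrm2 by 4.28, Pcna by 2.07 and Mcm6 by 1.10. On the expander arrays the list's mean ran from 7.12 to 8.33, above telogen (7.04) and below anagen (9.61) on all 8. Telogen was thus the array with the lowest cell cycle level of the series. The CCAAT word stood in 40 of 53 cell cycle windows (75.5%) against 37.9% of all windows, and in as large a share of the clock windows (16 of 21, 76.2%). Cdk1 is shown as the example, since it holds 3 copies, all on the other strand and so capitalised as the reverse complement (chr10:69352913-69353162, minus strand, the 250 bases before the start).
Cdk1: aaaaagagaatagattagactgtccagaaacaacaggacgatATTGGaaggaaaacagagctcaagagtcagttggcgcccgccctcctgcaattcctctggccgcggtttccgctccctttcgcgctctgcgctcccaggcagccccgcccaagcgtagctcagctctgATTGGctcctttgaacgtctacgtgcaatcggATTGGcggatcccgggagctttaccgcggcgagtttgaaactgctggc

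The growth machinery followed. Ribosome biogenesis, the making of new ribosomes in the nucleolus, had 16 of 20 genes higher and 0 lower (median 1.57), with Heatr1, Dkc1 and Nop2 at 3.13, 2.96 and 2.63. The structural ribosomal proteins did not share this: 3 of 64 were higher and 21 lower (median -0.61). Many of their values lay above 16. Of 7 polyamine genes 3 were higher and 1 lower. Azin1, which protects ornithine decarboxylase, was 10.32 in telogen and 14.18 in anagen, and Srm and Odc1 differed by 2.44 and 1.73. Cholesterol synthesis had 10 of 15 higher and 0 lower (median 2.04); Sqle, squalene epoxidase, was 8.06 in telogen and 11.06 in anagen, Hmgcs1 14.69 in telogen and 16.75 in anagen and the sterol sensor Insig1 8.59 in telogen and 12.69 in anagen. Among heat shock genes 7 of 9 were higher, Hsp90aa1 and Hsph1 by 3.26 and 2.73.

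Signals between epithelium and papilla were read pathway by pathway, and each count stands beside 17.5% of all genes higher and 17.8% lower. Of 22 Wnt ligands and R-spondins, 6 were higher and 2 lower, and 10 lay under background in both stages. Wnt5a was 6.70 in telogen and 10.50 in anagen, Wnt4 6.37 in telogen and 8.69 in anagen and Wnt3 5.51 in telogen and 7.63 in anagen. The R-spondins, which sustain Wnt receptors, parted: Rspo2 differed by 1.51, and Rspo1 and Rspo3 by -1.76 and -1.69. Wnt10b and Wnt10a, ligands of the early hair germ, differed by 0.44 and -0.40. Of 22 Wnt inhibitors and feedback targets, 11 were higher and 4 lower (median 1.03). The feedback targets Axin2, Nkd1, Nkd2 and Znrf3 were all higher, by 1.33, 1.69, 3.23 and 2.34. Secreted inhibitors went both ways: Sfrp1 was 10.37 in telogen and 15.22 in anagen and Wif1 7.30 in telogen and 10.20 in anagen, while Sfrp4 was 11.50 in telogen and 8.22 in anagen, Sfrp2 9.20 in telogen and 7.31 in anagen and Dkk2 7.69 in telogen and 6.37 in anagen.

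In the BMP and TGF-beta list 10 of 22 genes were higher and 5 lower. The ligands Bmp7, Bmp8a and Bmp4, the last expressed by papilla and precortex, differed by 5.68, 3.89 and 2.70. Id4, Id1 and Id3, transcriptional targets of BMP signals, differed by 5.30, 2.05 and 1.39. Among the antagonists, Grem1 was 10.85 in telogen and 7.41 in anagen. Fst was 11.86 in telogen and 9.67 in anagen, and Chrdl1 9.55 in telogen and 8.34 in anagen. Bambi, a pseudoreceptor that damps the pathway and is counted in the Wnt inhibitor list, was 4.93 in telogen and 11.49 in anagen. Noggin, which opens anagen by blocking BMP, was under background in both stages (4.12 in telogen against 4.35). The Hedgehog list had 7 of 14 higher and 0 lower. Shh, the matrix signal that anagen requires, was 7.23 in telogen and 9.69 in anagen, and its targets Ptch1, Hhip and Gli1 differed by 1.93, 2.35 and 0.62. The telogen values of Ptch1, Hhip and Gli1 (10.47, 7.07 and 8.01) stood above all expander arrays, which reached 9.37, 6.28 and 6.34. Of the Notch list 6 of 16 were higher and 2 lower, led by Notch1 (5.57 in telogen against 9.00) and Heyl (4.40 in telogen against 7.41), with Hey1 lower (8.75 in telogen against 6.86).

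Fibroblast growth factors went both ways. Fgf5, which ends anagen, was 3.85 in telogen and 8.78 in anagen, with the telogen value under background and the expander arrays at 4.11 to 4.61. Fgf18, which bulge cells make in telogen and which holds the follicle at rest, was 12.32 in telogen and 8.04 in anagen, and the expander arrays lay between at 8.38 to 11.51. Fgf7, a papilla signal to the germ, was 10.66 in telogen and 8.48 in anagen. Igfbp3 and Igfbp5, which bind insulin-like growth factors, differed by -3.81 and -1.58, and Igf1 by -0.48. Vegfa, the vessel growth factor, was 10.68 in telogen and 9.11 in anagen. Over the whole list 5 of 23 were higher and 8 lower, beside 17.5% and 17.8% of all genes.

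Of 20 stem cell genes, 5 were higher and 6 lower (median -0.11), where 17.5% of all genes were higher and 17.8% lower. Nfatc1, which keeps bulge cells out of cycle, was 11.04 in telogen and 7.57 in anagen, Cd34 14.76 in telogen and 12.03 in anagen, Krt15 16.33 in telogen and 13.69 in anagen and Krt24 8.50 in telogen and 5.62 in anagen. Sox9 and Tbx1, which bulge cells also express, were higher (12.19 in telogen against 13.99 and 10.90 in telogen against 12.94), and Lgr5, of the lower bulge, differed by 1.05. Of the 16 dermal papilla genes 4 were higher and 4 lower, beside the same shares of all genes, with 5 under background in both stages. Versican (Vcan), the matrix proteoglycan of the anagen papilla, was 6.64 in telogen and 10.48 in anagen, but 8 of 8 expander arrays held 8.90 to 13.21. Corin, which papilla cells express from early anagen, was 5.48 in telogen and 8.91 in anagen against 4.24 to 5.37 on the expander arrays.

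Interfollicular epidermis showed 2 patterns. Its counts stand beside 17.5% of all genes higher and 17.8% lower. Of 25 genes of differentiation and barrier, 8 were higher and 12 lower. The keratins of the suprabasal layers were lower: Krt1 was 16.04 in telogen and 11.97 in anagen and Krt10 18.42 in telogen and 15.53 in anagen. Krtdap (-4.24), Dmkn (-3.85), Hrnr (-3.52), Flg2 (-3.01) and the lipoxygenases Aloxe3 (-2.83) and Alox12b (-2.06) went with them. Cnfn, cornifelin, was 8.09 in telogen and 14.01 in anagen, and Casp14 8.09 in telogen and 12.57 in anagen. Cdsn (corneodesmosin, which the inner root sheath also makes), Ivl and Cers3 differed by 3.83, 2.93 and 2.85. Late cornified envelope genes of the epidermal differentiation complex were lower in 15 of 21 and higher in 1, while the neighbouring small proline-rich genes were higher in 7 of 12 and lower in 1. Lce1m and Lce1a1 differed by -3.43 and -2.33, Sprr1a and Sprr4 by 4.94 and 3.58. Of 12 basal layer genes 6 were lower and 1 higher. The hemidesmosome and laminin genes Dst, Col17a1, Itga6 and Lamb3 differed by -2.06, -1.49, -1.56 and -1.38.

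Wound keratins and alarmins were compared because activated epidermis shares genes with the follicle. The gap junction genes Gjb2 and Gjb6, which both express, were 7.36 in telogen against 14.11 and 5.54 in telogen against 11.71. S100a8 and S100a9 were 4.97 in telogen against 6.60 and 6.78 in telogen against 6.75, both under the expander arrays, which reached 16.51 and 17.17. Il33, an alarmin stored in keratinocyte and stromal nuclei, was 10.82 in telogen and 6.61 in anagen, and the expander arrays held 11.88 to 13.57, all above telogen. The list had 8 of 14 higher and 1 lower (median 1.53, or 0.55 with values floored at the background median).

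Sebaceous gland genes were lower in 10 of 16 and higher in 4 (median -1.17), beside 17.8% and 17.5% of all genes. Among genes of wax ester synthesis, the gland's own lipid product, Far2 was 16.42 in telogen and 13.43 in anagen, Awat1 9.58 in telogen and 6.59 in anagen, Awat2 10.39 in telogen and 8.35 in anagen and Dgat2l6 10.64 in telogen and 6.49 in anagen. The stearoyl-CoA desaturases Scd3 and Scd1 differed by -2.50 and -1.15, with values up to 18.50. With values above 16 set to 16 the list's median was 0.00. Fads2 was the other way (7.51 in telogen against 12.69), as were Mc5r (2.80) and Prdm1 (4.07), a gene that the matrix list also holds. Of 25 adipocyte genes, from the fat layer beneath the follicles, 5 were higher and 6 lower (median 0.22). These counts lay near the shares of all genes, 17.5% higher and 17.8% lower. The lipase gene Lipe was 7.68 in telogen and 11.02 in anagen and Lep, leptin, 7.36 in telogen and 8.99 in anagen. Retn (resistin) was 15.04 in telogen and 10.97 in anagen and Pparg, the master factor of the lineage, 11.02 in telogen and 8.57 in anagen. Adipoq and Fabp4, the abundant markers, differed by -0.35 and 0.22, and Adipoq lay above the expander arrays in both stages.

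The circadian clock was lower in 10 of 18 genes and higher in 2, against 17.8% and 17.5% of all genes (median -1.57). Among repressors and output genes of the clock, Per3 was 12.52 in telogen and 9.27 in anagen, Nr1d1 (REV-ERB alpha) 10.77 in telogen and 7.99 in anagen, Nr1d2 12.99 in telogen and 10.74 in anagen, Dbp 15.96 in telogen and 13.56 in anagen and Per2 8.71 in telogen and 6.55 in anagen, while the repressor Per1 differed by 0.10. Arntl (BMAL1), which these repressors oppose, was higher (8.90 in telogen against 10.44), as was Nfil3 (6.26 in telogen against 8.74), which opposes Dbp. Clock was 14.47 in telogen and 12.32 in anagen. The hour of sampling was not given in the labels, and its part in these values was not tested. The E-box word CACGTG, which BMAL1 and CLOCK bind, stood in 6 of 21 clock windows (28.6%) against 8.11% of all and 3 of 11 melanin windows (27.3%); a gene with several starts gives several windows. Ciart, a clock repressor at 7.71 in telogen against 5.88, is shown with its 3 copies in capitals (chr3:95882229-95882478, minus strand, the 250 bases before the start).
Ciart: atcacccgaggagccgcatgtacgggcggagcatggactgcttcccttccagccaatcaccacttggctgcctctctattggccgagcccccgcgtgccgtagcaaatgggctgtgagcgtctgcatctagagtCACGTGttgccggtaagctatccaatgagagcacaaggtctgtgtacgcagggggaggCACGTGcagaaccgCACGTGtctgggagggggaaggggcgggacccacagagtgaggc

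**Figure D5:**
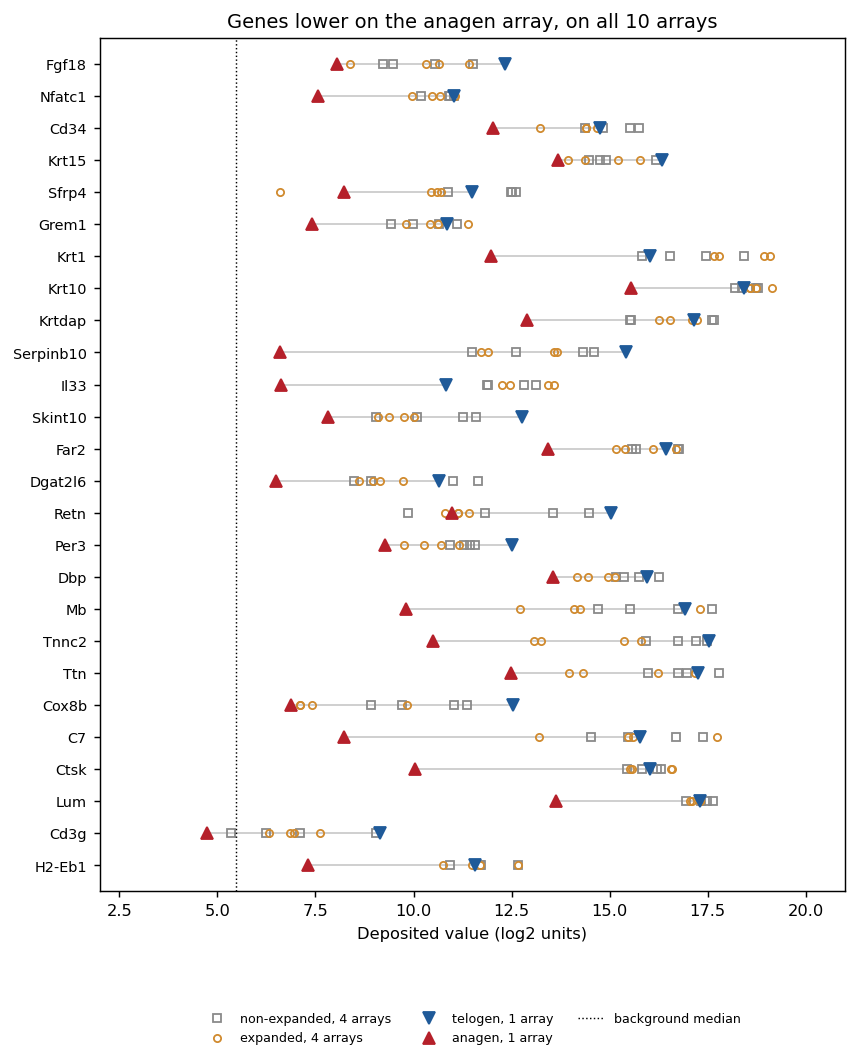
Values of 26 genes in log2 units on the telogen array (blue triangle), the anagen array (red triangle) and the 8 expander arrays (orange circles expanded, grey squares non-expanded), with the background median dotted. Anagen is below telogen for every gene shown, and for the muscle genes the expander arrays spread across much of the interval between both stages.

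Back skin holds striated muscle as a thin sheet under the fat. Genes of the skeletal muscle fibre list were lower nearly throughout, those of slow and developing muscle less so. In the latter list 4 of 13 genes were lower and 1 higher (median -0.84), beside 17.8% and 17.5% of all genes. Of 31 genes of the skeletal muscle fibre, 30 were at least 2-fold lower in anagen and 0 higher, with a median of -3.39. Mb was 16.92 in telogen and 9.81 in anagen, Tnnc2 17.52 in telogen and 10.48 in anagen, Ttn (titin) 17.24 in telogen and 12.47 in anagen and Neb (nebulin) 16.81 in telogen and 11.45 in anagen. The fibre-type myosins Myh1, Myh2 and Myh4 differed by -3.39, -2.84 and -1.50, and Myl1, the exception, by -0.67. The list's mean was 15.68 in telogen, 12.11 in anagen and 11.96 to 15.63 on the expander arrays. The means of the muscle fibre genes were thus well above background on both arrays. The anagen mean lay at the low end of the range of the other 8, with only the expanded array of day 7 (11.96) lower. In anagen Mb, Tnnc2 and Ttn lay under every expander array, where the lowest values were 12.71, 13.07 and 13.96. Myogenic regulators were mostly under background (9 of 12 in both stages), with Myf6 at 8.85 in telogen against 5.81 and Mef2c at 13.71 in telogen against 11.08. The word CAGCTG, an E-box of myogenic factors, stood in 13 of 25 muscle fibre windows (52%), against 16% of all windows, 26.7% of those of genes 8-fold lower in anagen and 4 of 11 melanin windows (36.4%). Mb is shown as the example with the largest muscle fall, its CAGCTG in capitals (chr15:77022728-77022977, minus strand, 1 of its 3 annotated starts, the 250 bases before it).
Mb: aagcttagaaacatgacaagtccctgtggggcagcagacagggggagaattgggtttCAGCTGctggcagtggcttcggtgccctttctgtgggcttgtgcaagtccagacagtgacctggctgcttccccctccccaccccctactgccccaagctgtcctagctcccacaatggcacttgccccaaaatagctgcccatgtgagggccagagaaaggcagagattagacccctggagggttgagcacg

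Genes of the mitochondrial respiratory chain were lower too. Of 84, 38 were lower and 3 higher (median -0.87). This count and the others of this paragraph stand beside 17.8% of all genes lower and 17.5% higher. The muscle isoforms of cytochrome oxidase, Cox8b, Cox6a2 and Cox7a1, had differences of -5.66, -4.51 and -4.54, next to -3.66 for Cox4i1, which most cells use. Of 17 glycolysis genes 7 were lower and 2 higher (median -0.57). The falls included the muscle isoenzymes Pfkm, Pgam2 and Eno3 (-3.96, -3.56 and -3.42) and were not limited to them. Pgam1 and Pfkp, the 2 higher genes, differed by 3.42 and 1.18, and Gapdh by 0.92. The muscle fibre list moved the same way as these lists, and the part of muscle in the falls of other lists was not tested. Smooth muscle genes, of vessels and the muscle that erects hairs, were lower in 7 of 11 and higher in 2: Myh11 was 10.92 in telogen and 8.84 in anagen and Mylk 11.35 in telogen and 7.87 in anagen, while Acta2 was 13.01 in telogen and 14.21 in anagen and Smtn 8.33 in telogen and 11.37 in anagen.

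The dermal matrix differed gene by gene. Its list counts stand beside 17.5% of all genes higher and 17.8% lower, shares that the collagens lay near. The abundant fibrillar collagen genes Col1a1 (18.03 in telogen against 16.57) and Col3a1 (17.83 in telogen against 17.36) were above 16 in both stages, while the minor fibrillar gene Col5a2 was 9.89 in telogen and 7.87 in anagen, and 3 of 20 collagens were higher and 4 lower. Of the other dermal matrix genes 5 of 20 were higher and 6 lower. Among its small leucine-rich proteoglycans, which space collagen fibrils, Lum was 17.30 in telogen and 13.63 in anagen, Aspn 16.30 in telogen and 12.36 in anagen, Ogn 18.23 in telogen and 15.89 in anagen and Fmod 7.51 in telogen and 5.85 in anagen, and Dcn and Bgn differed by -1.19 and 0.13. Tnc (tenascin C), Thbs1 and Eln (elastin) were higher (6.80 in telogen against 10.83, 6.99 in telogen against 9.52 and 7.50 in telogen against 8.99). Lox, the collagen cross-linking oxidase, was 13.23 in telogen and 12.26 in anagen, and every expander array was higher than both (14.86 to 17.65).

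Vessel, nerve and immune lists were small, and their counts stand beside 17.8% of all genes lower and 17.5% higher. Of 15 blood endothelial genes 4 were lower and 1 higher; Emcn and Cdh5 were 10.15 in telogen against 7.03 and 11.67 in telogen against 9.70, and Plvap, of fenestrated capillaries, 5.26 in telogen against 7.85. Of 7 lymphatic genes 3 were lower, Ccl21a most (-3.20). Of 7 genes of Schwann cells and myelin 2 were lower, Cdh19 (-3.06) and Mbp (-2.27), and 0 higher, with a median of 0.62. Of 12 macrophage genes 5 were lower and 0 higher. Cd163 was 12.01 in telogen and 8.79 in anagen and Csf1r 11.26 in telogen and 9.19 in anagen, while the complement genes C1qa, C1qb and C1qc differed by 0.08, 0.29 and 0.06. The macrophage mean was 9.40 in telogen and 8.39 in anagen, both under the expander arrays (10.71 to 13.23). Of 10 genes of dendritic cells and MHC class II 5 were lower and 0 higher, with H2-Eb1 11.56 in telogen and 7.30 in anagen and H2-Aa 12.57 in telogen and 9.46 in anagen, and so was Cd207 (langerin, of Langerhans cells) at 6.66 in telogen against 4.75. Of the T and NK cell list 5 of 11 were lower and 0 higher: Cd3g was 9.15 in telogen and 4.74 in anagen and Thy1 10.45 in telogen and 8.13 in anagen. Of 8 mast cell genes 3 were lower and 1 higher; the proteases Cpa3 and Cma1 differed by -2.43 and -0.52, and the gene that was higher is Kit, which melanocytes share. Neutrophil and B cell genes were mostly under background in both stages (6 of 9 and 4 of 4).

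The 4-fold differences were also read by position. Runs of at least 3 genes with a 4-fold difference in 1 direction and gaps of at most 500 kb held 690 of the 1401 genes that were 4-fold higher and 288 of the 979 that were 4-fold lower (build GRCm38.p6). The largest run, chr11:98664337-101551955 with 56 of 128 measured genes (median 9.14), holds type I keratins and their associated proteins. Keratin-associated proteins fill chr16:88505807-89571183 (28 of 33 genes), and type II keratins lie in chr15:99620496-102032026, with 15 of 61. Replication histone genes make up most of chr13:21513221-22043658 (16 of 32) and chr13:23535418-23764412 (11 of 23). Late cornified envelope genes make up most of the run of lower genes at chr3:92604821-93526288 (11 of 32), which also holds Flg2, Hrnr and S100a11. Members of a run are copies or neighbours of each other, and the runs are a description of position with no test; the share that gene density alone would give was not computed.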

How the data were processed

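Whole skin RNA was labelled with the Affymetrix WT PLUS kit, per the labels' protocols, and hybridised to 1 array a sample. The deposited values are read as log2 probe set signals; the log base, summarisation and normalization are not given in the sources used here, and the submitters' processing notes name build mm10. Every one of 10 columns was used. Of 28846 probe sets, 19572 had a gene symbol through GEO's platform annotation, all matched to RefSeq by gene ID; 9243 had none (1375 of them at least 2-fold higher and 2463 lower in anagen) and 31 were controls. Where a gene had several probe sets the one with the highest mean over all arrays was kept. In the 55 such genes the differences of the probe sets lay a median of 0.35 apart, and 0 genes had probe sets 2-fold apart in opposite directions. In 21 groups, 42 genes in all, genes carry identical values.

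The value of anagen minus telogen was taken with no filter, and a call is a difference of at least 1 (2-fold). The rule for named genes took the 12 largest differences each way among genes whose higher value exceeds the 95th percentile of background. It left out predicted and small RNA genes. From each of 51 lists it took up to 6 in the majority direction, 3 in the other, and marker genes. Some genes that it took are not named in the text. Further list members, such as Mcm2, Rrm2, Pcna and Mcm6, were added by choice. Of these lists 1 checks sex-linked genes. The comparison, the lists and the named genes were chosen with earlier results of these data known. Protein composition was not analysed here. Replicates labelled by number are days of the expander arms and were not compared. The code was tested on simulated differences. Python 3.11.15, pandas 2.3.3, numpy 2.4.6 and matplotlib 3.10.9 were used. The number of arrays limits the precision.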

Additional observations from a re-analysis of the deposited data

Results flagged for a closer look

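Levels of follicle genes on the expander arrays, which are 4 arrays of different days in each arm and no replicates of each other, held single arrays that stood apart by Dixon's test at 95%. The mean of the hair shaft keratins on the expanded array of day 7 was 8.87, with the nearest other expanded array at 4.57 and the lowest at 4.33. The mean of the keratin-associated proteins on that array was 11.45, against 5.56 for the nearest. Among the non-expanded arrays that of day 14 stood apart, at 5.46 for hair shaft keratins (nearest 4.53), 7.35 for keratin-associated proteins (nearest 5.26) and 9.29 for the inner root sheath (nearest 6.04). All of these means lay under the anagen array's and above the telogen array's, which were 5.03 for hair shaft keratins, 7.21 for keratin-associated proteins and 7.60 for the inner root sheath in telogen. Chance gives such a value in about 1 in 20 groups, and 22 list and arm combinations were looked at.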

How the results depend on the processing

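Under 7 alternatives planned for both counts and 2 added after seeing the data (the running median of the difference over level subtracted, and genes whose higher array was at or under the 95th percentile of background removed), the count of genes at least 2-fold higher ran from 3112 to 3755 and that of genes at least 2-fold lower from 2393 to 3466, within 1.5 times of 3409 and 3466. The share of higher genes among all 2-fold genes ran from 49.6% to 56.5%. Of 50 list medians 40 kept their sign under every alternative that gave a value; all 10 that did not were under 1 in size except that of the sebaceous gland, which became 0.00 with values above 16 set to 16. Of the 18 medians past 2-fold, 15 stayed past it throughout; the others were those of the sebaceous gland, of stress and wound epidermis (0.55 with values floored at the background median) and of Wnt inhibitors and feedback targets (lowest 0.92). Setting values above 16 to 16 lowered the medians of the inner root sheath and keratin-associated proteins to 8.70 and 7.56, and the floor lowered that of hair shaft keratins to 8.67. Of the 24 genes with the largest differences, 7 moved by over 1.5 times with values above 16 set to 16 (Tchhl1 to 8.70, Mb to -6.19) and 6 with the floor (Ctse to 10.34, Ipw to -5.11); up to 10 list medians moved under 1 filter. No median past 2-fold and none of these genes changed sign. No B and plasma cell gene remained under the 3 filters. No paired analysis was possible because each stage has 1 array and no test was made. Signal over background limits the lists of weakly expressed genes, and 1 array a stage leaves every difference without an error.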

Other observations

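Gene families that no list held were looked up after their values had been seen, and are given as values with no test. Replication-dependent histone genes, which supply chromatin in S phase, were at least 2-fold higher in anagen in 47 of 55 and lower in 0, with a median difference of 2.26; their median level was 8.95 in telogen, 11.95 in anagen and 8.95 to 11.36 on the expander arrays. Tubulin genes were higher in 11 of 15 and lower in 0, with Tubb6 the highest at 6.46. Skint genes, butyrophilin-like genes of skin and thymus of which Skint1 selects dendritic epidermal T cells, were lower in 11 of 11, by a median of -3.73, and Skint10 was 12.77 in telogen and 7.83 in anagen. The clade B serpins were lower in 13 of 26 and higher in 0. Of 33 Hox genes 7 were higher and 2 lower, beside 17.5% and 17.8% of all genes, with a highest difference of 4.61, that of Hoxc13.

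Outside the lists, some of the largest rises were of transporters and surface proteins: Slc7a8, an amino acid exchanger, was 6.31 in telogen and 14.56 in anagen, and Slc40a1, the iron exporter ferroportin, 6.77 in telogen and 14.53 in anagen. Gprc5d, an orphan receptor of hard keratin tissues, was 3.19 in telogen and 12.50 in anagen, and the adhesion gene Cdh6 5.40 in telogen and 13.58 in anagen. S100a7a, the mouse psoriasin gene, was 5.29 in telogen and 14.71 in anagen, and Car6, a secreted carbonic anhydrase, 10.23 in telogen and 16.96 in anagen. Among the falls, Il31ra, a subunit of the receptor for the itch cytokine interleukin 31, was 12.81 in telogen and 7.60 in anagen, higher in telogen than on any expander array (6.94 to 9.87). Adh1, an alcohol dehydrogenase, was 14.05 in telogen and 8.67 in anagen, and Retnla 13.36 in telogen and 8.28 in anagen. In the immediate early list 8 of 19 genes were higher and 2 lower, with Myc 8.75 in telogen and 11.87 in anagen; Dusp1, Fos and Fosb were below the expander arrays in both stages.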
